A study of Mus musculus with 12 samples.

Results

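The genes described here are 10 transcripts by which stellate cells and pericytes are commonly recognised, namely *Cygb*, *Des*, *Vim*, *Nes*, *Pdgfra*, *Pdgfrb*, *Cspg4*, *Rgs5*, *Ngfr* and *Thy1*. They were chosen by symbol, and all 10 were found among the 39179 genes of the count table. PSCs, an SV40-immortalised line of mouse pancreatic stellate cells grown from 1 clone, labelled as C57BL/6 and carrying mCherry, were kept in culture over 72 h without other cells (mono-PSCs), beside PCCs (2W-PSCs), or beside PCCs together with MØs (3W-PSCs). PCCs are mouse pancreatic ductal adenocarcinoma cells carrying EGFP, and MØs are RAW264.7 mouse macrophages carrying TagBFP. All flasks held the same low-serum medium and the same total number of cells, PSCs were sorted on mCherry, and 4 libraries were made per culture, labelled as biological replicates, so that p-values measure the spread between cultures of a single clone. The comparisons ask how the expression of stellate identity genes in PSCs differs with the cells they are grown beside. At an equal total, co-cultures held fewer PSCs than mono-cultures at the start. The companion cells and the number of PSCs therefore cannot be told apart against mono-PSCs.

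Stellate cells are mesenchymal cells that sit beside acini and vessels in the pancreas, store vitamin A droplets when quiescent, and turn into matrix-producing fibroblasts after injury. They share with pericytes, the mural cells of capillaries, the PDGF receptors through which PDGF dimers drive proliferation and migration. Neither cell type has a single exclusive marker, so both are named from combinations of cytoskeletal filaments, growth factor receptors, surface proteins and cytoglobin.

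The members fell into 3 ranges of expression. Libraries were made with a 3′ kit that yields about 1 fragment per transcript, so CPM, counts scaled to a common library size by the TMM method, can be set side by side between genes without correction for length. *Vim* had a mean level of 1420 CPM over the 12 libraries and ranked 47 among all genes. *Cygb* (120 CPM), *Pdgfrb* (108 CPM), *Thy1* (62 CPM), *Nes* (47.5 CPM) and *Pdgfra* (18.6 CPM) were detected in all 12 libraries with at least 28 counts. *Des* (1.29 CPM), *Rgs5* (0.239 CPM), *Cspg4* (0.0749 CPM) and *Ngfr* (0 CPM) were near or below what the libraries could detect. The cells thus carried vimentin, PDGF receptor, *Thy1* and cytoglobin transcripts, whereas the mural cell genes *Rgs5* and *Cspg4* were near 0 and *Ngfr* had no count. In bulk RNA, fewer cells with a transcript and fewer transcripts per cell cannot be told apart.

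Against mono-PSCs, 1 member was called in 2W-PSCs and 3 in 3W-PSCs, and 3 were called between 3W-PSCs and 2W-PSCs. A gene was called where its p-value from the quasi-likelihood test of edgeR, adjusted over all genes tested, was below 0.05, and log2FC is the log2 fold change of that fit. In 2W-PSCs against mono-PSCs, *Cygb* was called among the 6 members that passed the filter on low counts, where 0.991% of 11199 genes were called (0.839% higher, 0.152% lower). Of 7 members tested in 3W-PSCs against mono-PSCs, *Pdgfra* and *Nes* were higher and *Thy1* was lower, where 26.4% of 11551 genes were called (13.4% higher, 13.0% lower). Of 6 members tested between 3W-PSCs and 2W-PSCs, *Pdgfra* was higher and *Cygb* and *Thy1* were lower, where 10.7% of 11513 genes were called (5.73% higher, 4.95% lower). The 6 members tested in all 3 comparisons were *Cygb*, *Vim*, *Nes*, *Pdgfra*, *Pdgfrb* and *Thy1*, and *Des* was tested in 3W-PSCs against mono-PSCs alone.

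Before single genes are described, some properties of the libraries bear on all of them. Total counts ranged from 4561817 to 8093368, and 3 counts, taken as the floor of detection, corresponded to 0.347 to 0.736 CPM. Replicate 2 of 2W-PSCs had the fewest counts and lay apart from its group, with a Spearman correlation of 0.84 to 0.911 with the other 2W-PSCs, against 0.941 to 0.986 among mono-PSCs and among 3W-PSCs. All 16 fibroblast markers listed had counts in every culture. In mono-PSCs, 2W-PSCs and 3W-PSCs, 14, 15 and 14 of them had over 3 counts in each library of the culture. Their levels summed to 11700 to 13400 CPM (mono-PSCs), 13900 to 21800 CPM (2W-PSCs) and 7770 to 9340 CPM (3W-PSCs). Markers of cell types other than PSCs were counted as well. Of 20 epithelial markers, 10, 12 and 16 had counts in mono-PSCs, 2W-PSCs and 3W-PSCs, and they summed to 1.42 to 5.29, 81.5 to 164 and 58.3 to 102 CPM. *Krt18* was the most abundant, while *Cldn4* and *Ehf* had no count in any library. Of 17 macrophage markers, 9, 9 and 16 had counts, and they summed to 2.46 to 8.83, 4.79 to 11.8 and 26.8 to 80.5 CPM, with *Emr1* (F4/80) at 0 in all 12 libraries. Of 12 endothelial markers, 8, 4 and 8 had counts and summed to 19.7 to 32.4, 19.1 to 29.7 and 53.4 to 60.3 CPM, with *Cldn5*, *Erg* and *Tie1* at 0 throughout. The most abundant were *Flt1*, with means of 11.4, 16.3 and 47.1 CPM, and *Egfl7*, with 12.3, 7.18 and 5 CPM. Of 10 Schwann cell and neural crest markers, 6, 5 and 6 had counts and summed to 13.2 to 29 CPM, with *Sox10*, *Foxd3*, *Cdh19* and *Mog* at 0 throughout. Whether RNA of PCCs or MØs took part in any change below, of the members or of the other genes listed, was not tested.

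**Figure D1:**
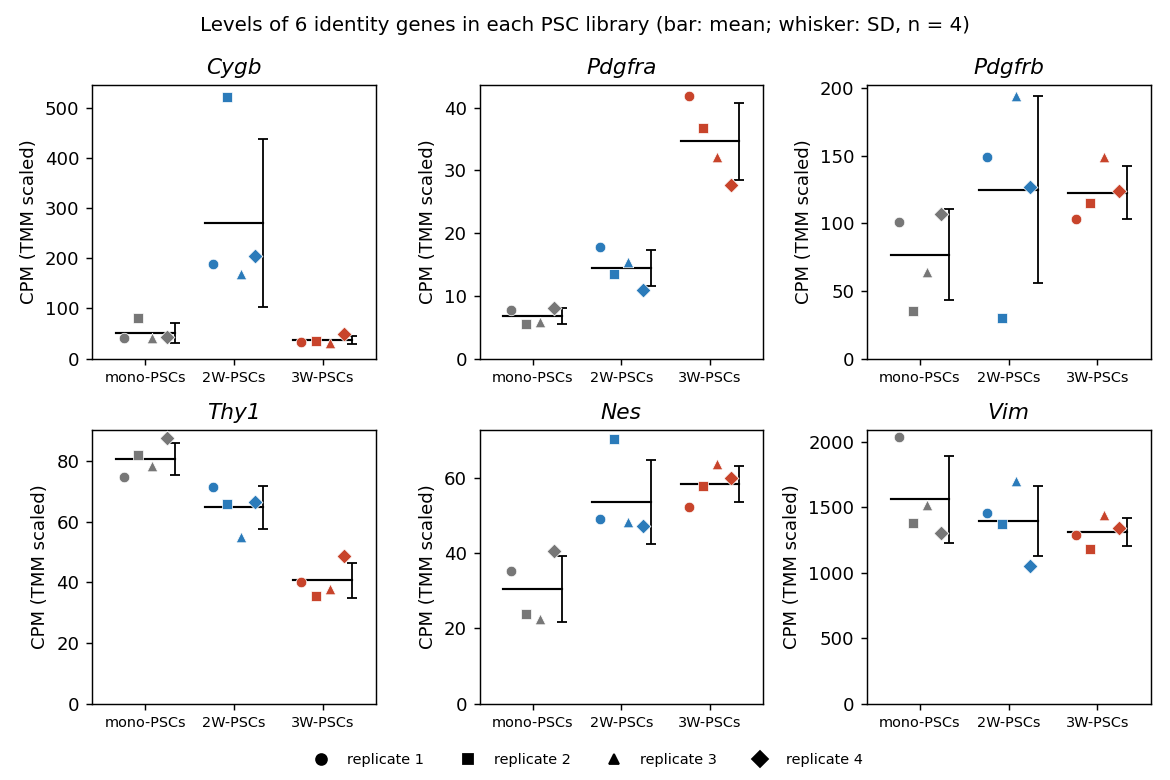
Expression of the 6 members that were tested in all 3 comparisons, in CPM with TMM scaling on linear axes that start at 0, with 1 panel per gene. Points are libraries (symbol: replicate number), horizontal bars are means and whiskers are SDs of 4 libraries. The means of *Pdgfra* are 6.79, 14.4 and 34.6 CPM in mono-PSCs, 2W-PSCs and 3W-PSCs, those of *Thy1* are 80.7, 64.8 and 40.7 CPM, *Cygb* is high in 2W-PSCs, and *Vim* overlaps between all cultures.

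*Pdgfra*, the receptor for PDGF-A chains and a general marker of fibroblasts, was higher in 3W-PSCs than in either of the other cultures. The gene (ENSMUSG00000029231) is at 75152292 to 75198215 of chromosome 5 in GRCm38 (plus strand). Its levels were 7.72, 5.48, 5.86 and 8.11 CPM in the 4 replicates of mono-PSCs, 17.7, 13.5, 15.4 and 10.9 CPM in 2W-PSCs, and 41.8, 36.8, 32.1 and 27.7 CPM in 3W-PSCs. No library of any culture overlapped with those of another. Means were 6.79 ± 1.31, 14.4 ± 2.9 and 34.6 ± 6.1 CPM (SD, n = 4 each).

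In 3W-PSCs *Pdgfra* was 5.02-fold higher than in mono-PSCs, a log2FC of 2.33 ± 0.226 (SE, edgeR adjusted p = 7.42e-07). It was 2.4-fold higher than in 2W-PSCs, a log2FC of 1.26 ± 0.221 (SE, edgeR adjusted p = 0.00522). Both calls held in all 15 alternative analyses. The step from mono-PSCs to 2W-PSCs, a log2FC of 1.09 with a 95% interval of 0.46 to 1.73, did not pass the test over all genes (edgeR adjusted p = 0.14), although it did where all 12 libraries shared 1 fit (0.0236). An exact two-sided permutation test of CPM gave p = 0.0286 for each pair of cultures, the smallest value that 4 libraries against 4 allow. Of all genes tested, 5.73% had libraries that did not overlap between 2W-PSCs and mono-PSCs (3.29% higher, 2.45% lower), 25.9% between 3W-PSCs and mono-PSCs (13.7% higher, 12.2% lower), and 21.3% between 3W-PSCs and 2W-PSCs (11.5% higher, 9.87% lower). Among the members, 4, 3 and 3 did not overlap in these comparisons, all named below.

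*Pdgfrb*, which binds PDGF-B chains and is the receptor that recruits pericytes to vessels, was the more abundant receptor gene in every library. Relative to its mean it varied more between replicates than *Pdgfra* in mono-PSCs and 2W-PSCs, but not in 3W-PSCs. The *Pdgfrb* gene is at 61045150 to 61085061 of chromosome 18 (plus strand, ENSMUSG00000024620). The replicates had 101, 35.1, 63.7 and 107 CPM in mono-PSCs, 149, 29.7, 194 and 127 CPM in 2W-PSCs, and 103, 115, 149 and 124 CPM in 3W-PSCs. Replicate 2 was the lowest library in mono-PSCs and, by a wide margin, in 2W-PSCs, and the ranges of all cultures overlapped. Mean levels were 76.6 ± 33.7, 125 ± 69.5 and 123 ± 19.7 CPM (SD, n = 4 each), so that SDs were 43.9%, 55.5% and 16% of the means. For *Pdgfra* these shares were 19.3%, 20.1% and 17.6%.

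Against mono-PSCs, *Pdgfrb* in 3W-PSCs had a log2FC of 0.67 ± 0.253 (SE, 95% interval 0.14 to 1.2), just short of the threshold (edgeR adjusted p = 0.0588). It passed without replicate 1 of mono-PSCs (0.0161) and without replicate 4 of mono-PSCs (0.0245), and also without a filter (0.000954) and in DESeq2 (0.0412). In 2W-PSCs the log2FC against mono-PSCs was 0.72 with an interval of -0.28 to 1.73 (edgeR adjusted p = 0.905). Between 3W-PSCs and 2W-PSCs it was -0.02 with an interval of -0.92 to 0.87 (edgeR adjusted p = 0.98), and its sign changed with the library left out.

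The balance between the receptor genes was therefore taken as the ratio of their counts within a library, which needs no scaling between libraries. *Pdgfrb* counts exceeded *Pdgfra* counts 13, 6.39, 10.9 and 13.2-fold in mono-PSCs, 8.4, 2.2, 12.6 and 11.7-fold in 2W-PSCs, and 2.46, 3.12, 4.66 and 4.5-fold in 3W-PSCs. The ratios of 3W-PSCs were all below those of mono-PSCs, while replicate 2 put 2W-PSCs across both. Mean log2 ratios were 3.39 ± 0.49, 2.85 ± 1.17 and 1.83 ± 0.44 (SD, n = 4 each).

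Between 3W-PSCs and mono-PSCs the mean log2 ratio differed by -1.55, lower in 3W-PSCs (exact two-sided permutation test, p = 0.0286), which over the 3 ratio tests adjusted to p = 0.0858 in this exact test. Differences of -0.54 between 2W-PSCs and mono-PSCs (exact permutation p = 0.571, adjusted 0.571) and of -1.02 between 3W-PSCs and 2W-PSCs (exact permutation p = 0.171, adjusted 0.256) did not pass. Without replicate 2 of 2W-PSCs these were 0.04 (exact permutation p = 0.914) and -1.59 (exact permutation p = 0.0286). Without replicate 1 or replicate 2 of 3W-PSCs the difference from mono-PSCs was -1.38 or -1.49, each with an exact permutation p of 0.0571.

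**Figure D2:**
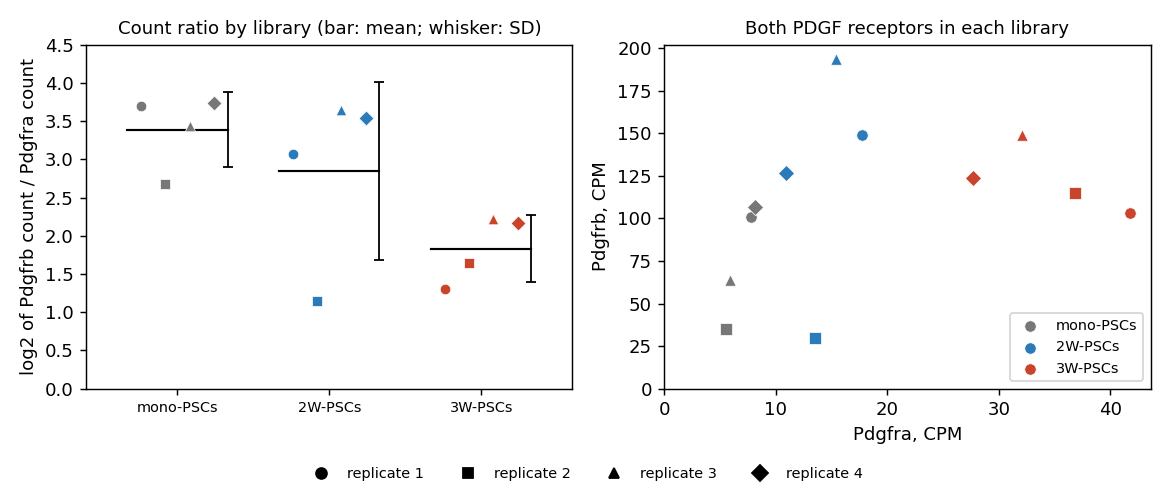
Left, log2 ratio of *Pdgfrb* to *Pdgfra* counts in each library, with means (bars) and SDs (whiskers) of 4 libraries per culture. Right, *Pdgfra* against *Pdgfrb* level in CPM for the 12 libraries (colour: culture; symbol: replicate number). The 3W-PSCs sit at the highest *Pdgfra* levels with *Pdgfrb* between 103 and 149 CPM, and replicate 2 of 2W-PSCs has the lowest *Pdgfrb* level of all.

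The genes around the receptors were read from a list of 24 PDGF ligands and proximal signalling genes. In 3W-PSCs against mono-PSCs, 7 of 22 tested were called higher and 0 lower (2 lower at an unadjusted p under 0.05, 0 in DESeq2), with a median log2FC of 0.26 beside 0.012 over all genes, of which 13.4% were called higher and 13.0% lower. Among them were *Src*, a tyrosine kinase that docks to activated PDGF receptors, with a log2FC of 1.23 ± 0.286 (SE, edgeR adjusted p = 0.004), and *Lrp1*, an endocytic receptor that binds PDGFRβ, with 1.23 ± 0.298 (SE, edgeR adjusted p = 0.00538). Between 3W-PSCs and 2W-PSCs 2 of 22 were higher and 0 lower (1 lower at an unadjusted p under 0.05, 0 in DESeq2), where 5.73% of all genes were higher, and *Src* again had a log2FC of 1.19 ± 0.225 (SE, edgeR adjusted p = 0.00746). The other was *Lrp1* (edgeR adjusted p = 0.0411), whose call ended without any of replicates 1, 3 and 4 of 2W-PSCs and replicates 2, 3 and 4 of 3W-PSCs (0.0588 to 0.116). In edgeR, 0 of 21 were called in 2W-PSCs against mono-PSCs, with 3 at an unadjusted p under 0.05 and 2 called by DESeq2.

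The ligand genes themselves were unequally expressed. *Pdgfa*, singled out after its values were seen, had 74.3 ± 0.579, 54.2 ± 10.9 and 81.8 ± 13.1 CPM in mono-PSCs, 2W-PSCs and 3W-PSCs (SD, n = 4 each), and was called in none of the comparisons. *Pdgfb*, singled out in the same way, had 0 to 4 counts in mono-PSCs, 0 to 3 in 2W-PSCs, and between 9 and 37 in 3W-PSCs, did not pass the filter, and was not tested. The macrophage markers moved in the same direction, as given above, and their part in the *Pdgfb* counts was not tested.

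Promoter sequences show the starts of both members called higher in 3W-PSCs against mono-PSCs. They are the 250 bases before the RefSeq start on GRCm38.p6, printed 5′ to 3′ on the plus strand, for *Pdgfra* at chr5:75152001-75152250 and for *Nes* at chr3:87970843-87971092, the last 15 bases of which are exonic in GENCODE. Capitals mark matches to any of 5 searched motifs.
Pdgfra: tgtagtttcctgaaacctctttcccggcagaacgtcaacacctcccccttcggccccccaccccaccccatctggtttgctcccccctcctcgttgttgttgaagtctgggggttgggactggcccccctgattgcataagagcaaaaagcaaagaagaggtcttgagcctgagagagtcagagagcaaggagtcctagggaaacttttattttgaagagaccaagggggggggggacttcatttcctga
Nes: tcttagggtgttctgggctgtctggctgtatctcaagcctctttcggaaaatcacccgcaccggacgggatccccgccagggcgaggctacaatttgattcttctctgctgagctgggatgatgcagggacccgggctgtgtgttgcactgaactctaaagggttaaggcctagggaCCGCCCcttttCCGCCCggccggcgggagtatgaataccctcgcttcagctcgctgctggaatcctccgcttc
The motifs were searched on both strands, and the printed matches do not overlap each other. They comprised the STAT element TTCNNNGAA, found in 7.02% of 32851 promoters of this length, the interferon response element, GAAA and again GAAA after any 2 bases (2.98%), the AP-1 element TGANTCA (6.75%), the GC box GGGCGG (32.7%) and the TATA box TATAAA (12.4%). The *Nes* window held 2 GC boxes on the minus strand, 73 and 62 bases before the start, and the *Pdgfra* window held no match to any of the 5. Promoters of *Des*, *Rgs5*, *Vim*, *Cspg4* and *Ngfr* were searched as well, so that 7 of the 10 members were covered in all. GC boxes were also found in the windows of *Des*, *Cspg4* and *Ngfr*, members near or below detection. The *Vim* window held a TATA box, and that of *Rgs5* held no match.

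*Cygb*, which encodes the haem protein cytoglobin and was first found in stellate cells of the liver, was highest in 2W-PSCs. It is at 116645595 to 116654313 of chromosome 11 (minus strand, ENSMUSG00000020810). The replicates of mono-PSCs had 41.3, 81.1, 40.3 and 42.3 CPM, those of 2W-PSCs 189, 521, 169 and 205 CPM, and those of 3W-PSCs 32.8, 34.7, 31.6 and 49.4 CPM. All 2W-PSCs were above all other libraries, whereas 3W-PSCs and mono-PSCs overlapped. Replicate 2 was highest in both mono-PSCs and 2W-PSCs, the same libraries in which *Pdgfrb* was lowest.

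Mean *Cygb* levels were 51.2 ± 19.9, 271 ± 167 and 37.1 ± 8.27 CPM (SD, n = 4 each) in mono-PSCs, 2W-PSCs and 3W-PSCs. In 2W-PSCs *Cygb* was 5.36-fold higher than in mono-PSCs, a log2FC of 2.42 ± 0.387 (SE, edgeR adjusted p = 0.00834). The log2FC was 1.88 without replicate 2 of 2W-PSCs (edgeR adjusted p = 0.000227). Without replicate 3 of mono-PSCs it was 2.32 and missed the threshold (edgeR adjusted p = 0.0522), the only one of 15 alternatives that did.

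In 3W-PSCs *Cygb* was 7.29-fold lower than in 2W-PSCs, a log2FC of -2.87 ± 0.364 (SE, edgeR adjusted p = 0.000803), and this was called in all 15 alternatives. Without replicate 2 of 2W-PSCs the log2FC was -2.34. The level in 3W-PSCs was not told apart from that of mono-PSCs, with a log2FC of -0.47 and an interval of -0.95 to 0.01 (edgeR adjusted p = 0.142). The exons of *Cygb* share 201 bases with *Prcd* on the opposite strand, none of them in the last 500 bases, where a 3′ kit reads.

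*Thy1*, which encodes the surface glycoprotein CD90 of fibroblasts and several blood cells, was lower in 3W-PSCs than in either of the other cultures. It is at 44043384 to 44048579 of chromosome 9 (plus strand, ENSMUSG00000032011). Levels were 74.8, 81.9, 78.5 and 87.6 CPM in mono-PSCs, 71.5, 66, 54.9 and 66.6 CPM in 2W-PSCs, and 40.2, 35.6, 37.9 and 48.8 CPM in 3W-PSCs. Each library of mono-PSCs was above each of 2W-PSCs, and each of these was above each of 3W-PSCs. The means were 80.7 ± 5.44, 64.8 ± 7.01 and 40.7 ± 5.77 CPM (SD, n = 4 each).

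Against mono-PSCs, *Thy1* was 1.99-fold lower in 3W-PSCs, a log2FC of -1 ± 0.156 (SE, edgeR adjusted p = 0.000144), in all 15 alternatives too. The smaller difference between 2W-PSCs and mono-PSCs, a log2FC of -0.3 with an interval of -0.68 to 0.08, did not pass (edgeR adjusted p = 0.869), although the libraries did not overlap (exact permutation p = 0.0286). Between 3W-PSCs and 2W-PSCs *Thy1* was 1.59-fold lower, a log2FC of -0.67 ± 0.169 (SE, edgeR adjusted p = 0.0297). That call was lost without replicate 1 (0.0646) or 4 (0.0807) of 2W-PSCs, and without replicate 1 (0.091), 2 (0.113) or 3 (0.0806) of 3W-PSCs, while the log2FC stayed between -0.66 and -0.61 in these.

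Genes of other surface proteins with the same lipid anchor as CD90 were read from a list. Of 11 tested genes for GPI-anchored proteins of mesenchymal cells, 7 were higher and 1 lower in 3W-PSCs than in mono-PSCs. The median log2FC was 1.11 beside 0.012 over all genes, of which 13.4% were called higher and 13.0% lower. *Gfra1*, a receptor for GDNF, had a log2FC of 2.62 ± 0.423 (SE, edgeR adjusted p = 0.00019), though it shares 416 exonic bases near its 3′ end with an antisense gene. *Ly6e*, an interferon-responsive surface protein, rose from 79 ± 13.4 to 413 ± 65.7 CPM (SD, n = 4 each, edgeR adjusted p = 2.34e-08). *Cdh13*, T-cadherin, had 0 counts in all mono-PSCs and 14 to 19 in 3W-PSCs, at least 3.56-fold higher against the floor of 3 counts per library. Between 3W-PSCs and 2W-PSCs 5 of 11 were higher and 0 lower (2 lower at an unadjusted p under 0.05, 0 in DESeq2). Of all genes, 5.73% were called higher and 4.95% lower in that comparison. Among the higher genes was *Ly6a* (Sca-1) with a log2FC of 2.54 ± 0.221 (SE, edgeR adjusted p = 8.34e-05).

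In 2W-PSCs against mono-PSCs, 0.839% of all genes were called higher and 0.152% lower. Of 10 tested genes of this list, 0 were higher (3 at an unadjusted p under 0.05, 1 in DESeq2) and 2 lower. These were *Gfra2*, with a log2FC of -2.52 (edgeR adjusted p = 0.0133, and 0.0721 without replicate 4 of mono-PSCs and 0.0596 without replicate 4 of 2W-PSCs), and *Ly6a*, with -1.02 (edgeR adjusted p = 0.039). The *Ly6a* call was kept only without replicate 1 of mono-PSCs or replicate 2 of 2W-PSCs among the 8 fits that left out 1 library.

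**Figure D3:**
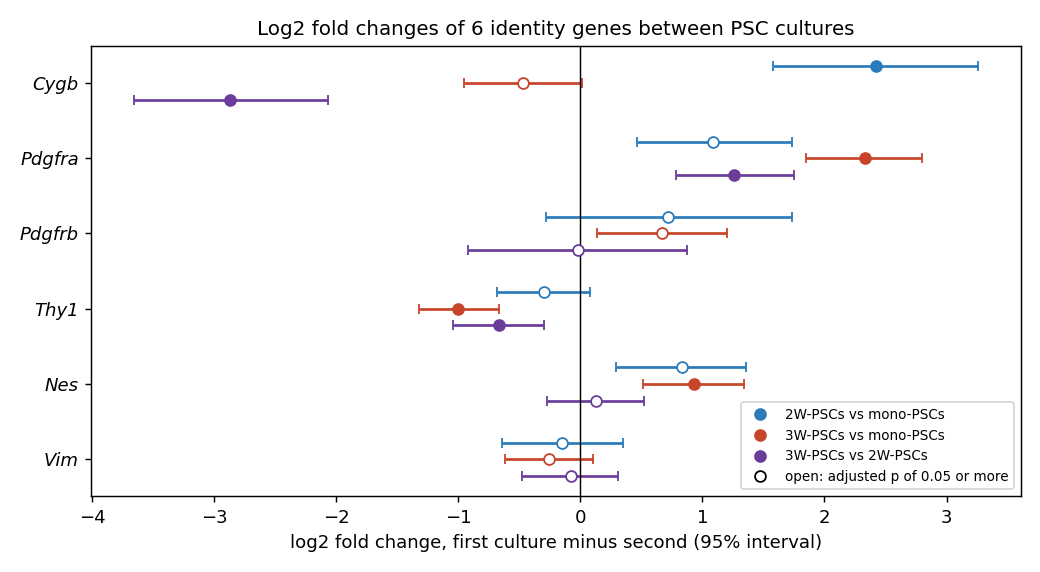
Log2 fold changes from edgeR for the 6 members tested in all 3 comparisons, with 95% intervals, where a value above 0 means higher in the first culture named. Filled points passed an adjusted p-value of 0.05. *Cygb* lies at 2.42 and -2.87 in both comparisons with 2W-PSCs, *Pdgfra* is above 0 in all 3, and each interval of *Vim* and *Pdgfrb* other than that of *Pdgfrb* in 3W-PSCs against mono-PSCs spans 0.

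The intermediate filament genes of the group behaved differently from each other. *Nes*, the gene of nestin, a filament of progenitor cells that also marks activated stellate cells, was higher in 3W-PSCs against mono-PSCs. It is at 87971078 to 87980451 of chromosome 3 (plus strand, ENSMUSG00000004891). The replicates had 35.3, 23.7, 22.4 and 40.4 CPM in mono-PSCs, 48.9, 70.2, 48.1 and 47.2 CPM in 2W-PSCs, and 52.3, 57.7, 63.5 and 59.9 CPM in 3W-PSCs. All mono-PSCs were below all co-cultured PSCs, and the co-cultures overlapped each other.

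Means of *Nes* were 30.4 ± 8.82, 53.6 ± 11.1 and 58.4 ± 4.68 CPM (SD, n = 4 each). In 3W-PSCs *Nes* was 1.9-fold higher than in mono-PSCs, a log2FC of 0.93 ± 0.196 (SE, edgeR adjusted p = 0.00193), and was called in all 15 alternatives. In 2W-PSCs the log2FC was 0.83 with an interval of 0.29 to 1.36, which did not pass over all genes (edgeR adjusted p = 0.215). The difference between both co-cultures was 0.13 with an interval of -0.27 to 0.52 (edgeR adjusted p = 0.697).

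*Vim*, the gene of vimentin and the main filament of mesenchymal cells, was the most abundant member by far. It is at 13573927 to 13582826 of chromosome 2 (plus strand, ENSMUSG00000026728). The libraries had 2040, 1380, 1520 and 1300 CPM in mono-PSCs, 1460, 1370, 1700 and 1050 CPM in 2W-PSCs, and 1290, 1180, 1440 and 1340 CPM in 3W-PSCs, and all cultures overlapped. Mean levels were 1560 ± 332, 1390 ± 269 and 1310 ± 109 CPM (SD, n = 4 each).

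No comparison of *Vim* passed the test. Its log2FC was -0.15 (interval -0.64 to 0.35, edgeR adjusted p = 0.999) in 2W-PSCs and -0.26 (interval -0.62 to 0.1, edgeR adjusted p = 0.283) in 3W-PSCs against mono-PSCs, and -0.08 (interval -0.48 to 0.31, edgeR adjusted p = 0.807) between 3W-PSCs and 2W-PSCs. With 4 libraries a culture, these intervals leave room for changes of up to 0.64 on the log2 scale.

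*Des*, the gene of desmin and the classical filament marker of quiescent stellate cells and pericytes, was barely detected. It is at 75360329 to 75368579 of chromosome 1 (plus strand, ENSMUSG00000026208). Raw counts were 7, 5, 11 and 21 in mono-PSCs, 4, 5, 2 and 5 in 2W-PSCs, and 25, 2, 6 and 12 in 3W-PSCs. The ranges overlapped, and 2 libraries were at or below the floor of 3 counts. In 3W-PSCs against mono-PSCs, the one comparison in which *Des* passed the filter, its log2FC was -0.24 with an interval of -1.62 to 1.14 (edgeR adjusted p = 0.819), so no difference was detectable at this depth. Exact two-sided permutation tests of CPM gave p = 0.0571 for 2W-PSCs against mono-PSCs and p = 0.4 for 3W-PSCs against 2W-PSCs. An antisense gene, *Gm15179*, covers 220 of the last 500 exonic bases of *Des*. The strand setting of the counting is not given in the sources used here, so the *Des* counts are uncertain and may be too high or too low.

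A list of 15 other filament proteins and their linkers was read in the same way. Of 9 tested in 3W-PSCs against mono-PSCs, 1 was higher and 1 lower (1 and 3 in DESeq2), where 13.4% of all genes were higher and 13.0% lower, with a median log2FC of -0.03. These were *Dst*, which encodes a linker of filaments to adhesion sites, with 0.96 ± 0.226 (SE, edgeR adjusted p = 0.00421), and *Cryab*, a chaperone that binds desmin and vimentin, with -1.76 ± 0.198 (SE, edgeR adjusted p = 4.37e-06). *Synm*, the desmin and vimentin partner synemin, had between 1 and 7 counts in 2W-PSCs, and between 22 and 49 in 3W-PSCs. It was the only one of 8 called between them, where 10.7% of all genes were called, with a log2FC of 2.65 (edgeR adjusted p = 0.0151). That call was lost without replicate 2 of 3W-PSCs (0.0688). In edgeR, 0 of 8 were called in 2W-PSCs against mono-PSCs, with 1 at an unadjusted p under 0.05, which DESeq2 called lower.

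The remaining members are surface and signalling genes of mural or neural cells, and were at or near 0. *Rgs5*, a regulator of G protein signalling and a defining pericyte gene, is at 169655501 to 169695813 of chromosome 1 (plus strand, ENSMUSG00000026678). It had 0, 4, 0 and 0 counts in mono-PSCs, 3, 0, 8 and 0 in 2W-PSCs, and 1, 0, 2 and 0 in 3W-PSCs, 18 in all. *Cspg4*, the gene of the pericyte proteoglycan NG2, is at 56865033 to 56899870 of chromosome 9 (plus strand, ENSMUSG00000032911).

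Counts of *Cspg4* were 0, 0, 0 and 3 in mono-PSCs, 2, 0, 0 and 0 in 2W-PSCs, and 0, 0, 2 and 0 in 3W-PSCs, 7 in all. *Ngfr*, the low-affinity receptor of nerve growth factor that marks hepatic and pancreatic stellate cells, is at 95568818 to 95587735 of chromosome 11 (minus strand, ENSMUSG00000000120) and had 0 counts in all 12 libraries. A count of 0 allows up to 3 counts, or 0.347 to 0.736 CPM by library. None of these 3 genes passed the filter in any comparison, so they were not tested, and no sequence of 75 bases in the last 500 bases of any of the 10 members recurs in another gene.

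**Figure D4:**
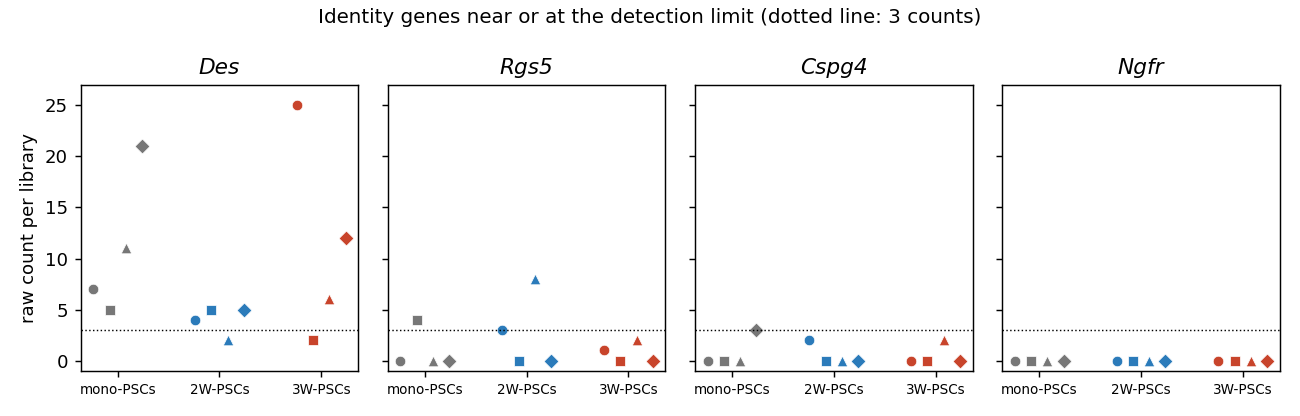
Raw counts of *Des*, *Rgs5*, *Cspg4* and *Ngfr* in each library on a shared linear axis (colours mark cultures, symbols mark replicate numbers and the dotted line marks the floor of 3 counts). *Des* reaches 25 counts, *Rgs5* 8 and *Cspg4* 3, and *Ngfr* has 0 in all 12 libraries.

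Other genes of the same cell types were read from lists. Of 35 further pericyte genes, 10 had no count in any library, among them *Abcc9*, *Kcnj8*, *Higd1b* and *Vtn*, which are defining genes of capillary pericytes and were singled out after their values were seen. Of 14 tested in 3W-PSCs against mono-PSCs, 4 were higher and 3 lower, where 13.4% of all genes were higher and 13.0% lower. The median log2FC was -0.18 beside 0.012 over all genes. *Angpt1*, the vessel-stabilising ligand of the TIE2 receptor, rose from 1.93 ± 0.23 to 8.88 ± 3.65 CPM (SD, n = 4 each, edgeR adjusted p = 0.000458), and *Aoc3*, an amine oxidase of mural cells, fell from 6.62 ± 2.94 to 0.673 ± 0.637 CPM (SD, n = 4 each, edgeR adjusted p = 0.000821). *Foxf2*, a forkhead factor of mural cells, had 1 to 21 counts in mono-PSCs and 23 to 61 in 3W-PSCs (edgeR adjusted p = 0.0211), a call lost without replicate 3 (0.0699) or 4 (0.0539) of mono-PSCs or replicate 2 (0.0522) or 3 (0.068) of 3W-PSCs. Between 3W-PSCs and 2W-PSCs 1 of 14 was higher, *Angpt1*, and 3 lower, where 5.73% of all genes were higher and 4.95% lower. Among the lower genes were *Aoc3* and *Mcam* (CD146), the latter with a log2FC of -1.9 ± 0.354 (SE, edgeR adjusted p = 0.00701). For 2W-PSCs against mono-PSCs edgeR called 0 of 13, with 3 at an unadjusted p under 0.05 and 1 called by DESeq2, and the median log2FC was 0.56 beside 0.02 over all genes.

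Of 24 further stellate cell genes, 4 had no count in any library, and *Gfap*, the glial filament that marks quiescent stellate cells, singled out after its values were seen, was among them. Of 14 tested in 3W-PSCs against mono-PSCs, 1 was higher and 2 lower, where 13.4% of all genes were higher and 13.0% lower. The median log2FC was 0.16 beside 0.012 over all genes. *Fabp4*, a fatty acid binding protein, had 0 to 6 counts in mono-PSCs and 41 to 109 in 3W-PSCs (edgeR adjusted p = 3.52e-05). *Fabp5*, its relative, fell from 465 ± 102 to 145 ± 19.3 CPM (SD, n = 4 each, edgeR adjusted p = 1.84e-06) and was lower in 3W-PSCs than in 2W-PSCs as well, by a log2FC of -1.4 ± 0.165 (SE, edgeR adjusted p = 5e-04). *S100a6*, a calcium-binding protein, fell from 4430 ± 727 to 2530 ± 341 CPM (SD, n = 4 each, edgeR adjusted p = 0.00222). Of 14 tested between 3W-PSCs and 2W-PSCs, 2 were higher and 2 lower, where 5.73% of all genes were higher and 4.95% lower. For 2W-PSCs against mono-PSCs edgeR called 0 of 12, with 2 at an unadjusted p under 0.05 and 0 called by DESeq2.

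Some relatives of *Rgs5* were expressed, though most of those listed did not pass the filter. Of 22 further genes listed with the *Rgs* family, 4 had no count in any library. Of 6 tested in 3W-PSCs against mono-PSCs, 3 were higher and 1 lower, where 13.4% of all genes were higher and 13.0% lower. *Rgs2*, which curbs Gq signalling, had 51.7 ± 1.75, 12.7 ± 5.63 and 6.23 ± 2.18 CPM (SD, n = 4 each) in mono-PSCs, 2W-PSCs and 3W-PSCs. It fell by 2.01 on the log2 scale in 2W-PSCs (edgeR adjusted p = 0.00415) and by 3.06 in 3W-PSCs (edgeR adjusted p = 5.66e-08). *Rgs16*, which had 0 or 1 count in mono-PSCs and 15 to 46 in 3W-PSCs, was at least 6.95-fold higher against the floor per library. *Rgs17* had a log2FC of 2.2 ± 0.313 in 3W-PSCs (SE, edgeR adjusted p = 5.51e-05). In 2W-PSCs against mono-PSCs, 0.839% of all genes were called higher and 0.152% lower. Of 5 tested in 2W-PSCs, 1 was higher, *Rgs17* at the edge of the threshold (edgeR adjusted p = 0.0497). That call held without replicate 2 of 2W-PSCs (0.0185) but in none of the 7 other fits that left out 1 library. Between the co-cultures edgeR called 0 of 6, with 4 at an unadjusted p under 0.05 and 1 called by DESeq2.

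Of 6 tested genes listed as chondroitin sulphate proteoglycan cores, the class to which *Cspg4* belongs, 4 were higher in 3W-PSCs against mono-PSCs. Lower were 0 (also 0 at an unadjusted p under 0.05 and in DESeq2). The median log2FC was 1.24 beside 0.012 over all genes, of which 13.4% were called higher and 13.0% lower. The 6 include *Smc3*, the gene of a cohesin subunit, singled out after its values were seen and not called (log2FC 0.1). *Acan* (aggrecan) had 0 counts in all mono-PSCs, between 13 and 36 in 2W-PSCs, and between 20 and 45 in 3W-PSCs, at least 6-fold and 7.35-fold higher against the floor per library, although the call in 2W-PSCs (edgeR adjusted p = 0.0115) was lost without replicate 4 of 2W-PSCs (0.0511). *Vcan* (versican) had 13.1 ± 4.07, 30.2 ± 6.18 and 65.4 ± 5.11 CPM (SD, n = 4 each) and was called in 3W-PSCs against mono-PSCs (edgeR adjusted p = 5.69e-07) and against 2W-PSCs (edgeR adjusted p = 0.00413). *Cd44*, the hyaluronan receptor, was called in both comparisons of 3W-PSCs too, with log2FCs of 1.82 ± 0.212 and 1.58 ± 0.326 (SE, edgeR adjusted p = 5.98e-06 and 0.0118). The other gene of this class called in 2W-PSCs against mono-PSCs was *Dcn* (decorin), with 0.95 (edgeR adjusted p = 0.0329), which held without replicate 2 of 2W-PSCs but in none of the 7 other such fits. *Dcn* was also the 1 gene of 6 called lower in 3W-PSCs than in 2W-PSCs, where 4.95% of all genes were lower. Its log2FC was -0.98 (edgeR adjusted p = 0.0262). That call was lost without replicate 1 (0.0572) or 4 (0.0735) of 2W-PSCs or replicate 3 (0.0712) or 4 (0.0812) of 3W-PSCs.

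Of 20 genes of neurotrophins and their receptors other than *Ngfr*, 3 had no count in any library and at most 7 passed the filter. The neurotrophin receptor genes *Ntrk2* and *Ntrk3* had no count in any library, both singled out after their values were seen. In 3W-PSCs against mono-PSCs 0 of 7 tested were higher (1 at an unadjusted p under 0.05, 1 in DESeq2) and 3 lower. The median log2FC was -0.53 beside 0.012 over all genes, of which 13.4% were called higher and 13.0% lower. *Ngfrap1*, whose product binds the *Ngfr* receptor, had 351 ± 73, 270 ± 46.1 and 166 ± 14.4 CPM (SD, n = 4 each) in mono-PSCs, 2W-PSCs and 3W-PSCs and fell by 1.09 on the log2 scale in 3W-PSCs against mono-PSCs (edgeR adjusted p = 0.000117). Between 3W-PSCs and 2W-PSCs, where 10.7% of all genes were called, *Ngfrap1* was the 1 gene of 7 called, by -0.7 (edgeR adjusted p = 0.023). That call was lost without replicate 4 of 2W-PSCs (0.0718) or replicate 1 (0.0889), 2 (0.0911) or 4 (0.0637) of 3W-PSCs. *Bdnf* was the 1 gene of 6 called in 2W-PSCs against mono-PSCs, where 0.991% of all genes were called. It had 159 ± 3.6 against 91.8 ± 10 CPM (SD, n = 4 each, edgeR adjusted p = 0.0467). The call held without replicate 2 of 2W-PSCs (0.0182) but in none of the 7 other fits that left out 1 library.

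For each member called in any comparison, the genes with the most similar profile were sought among 11054 other genes, by the root-mean-square difference of log2 CPM over the 12 libraries after each gene was centred on its own mean. The libraries share depth and scaling between genes, so these distances are descriptions without a test. Nearest to *Cygb*, whose own root-mean-square deviation was 1.28, were *Nrep* (0.4), *Acta2* (0.44) and *Tagln* (0.45), which encode a neuronal regeneration related protein, α-smooth muscle actin and transgelin. *Acta2* had mean levels of 139, 616 and 105 CPM and *Nrep* of 37.4, 163 and 28.9 CPM in mono-PSCs, 2W-PSCs and 3W-PSCs. Those of *Tagln*, 108 of whose last 500 exonic bases overlap *Pcsk7* on the opposite strand, were 11.5, 75.2 and 9.54 CPM.

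Nearest to *Pdgfra*, with a deviation of 0.97, were *Ifi204* (0.27), *Trim12a* (0.28) and *Fgfr1* (0.28), of which the fibroblast growth factor receptor gene *Fgfr1* had mean levels of 34, 60.6 and 149 CPM and the interferon-inducible *Ifi204* of 35.8, 65.4 and 170 CPM. *Nes*, with a deviation of 0.5, was nearest to *Heg1* (0.15), *Lig3* (0.15) and *Zfp217* (0.21). The last 500 exonic bases of *Lig3* are shared with *Rffl* on the opposite strand, so its counts are uncertain. *Thy1*, with a deviation of 0.43, was nearest to *Arhgap29* (0.13), *Arhgap5* (0.14) and *Lamtor2* (0.15).

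**Figure D5:**
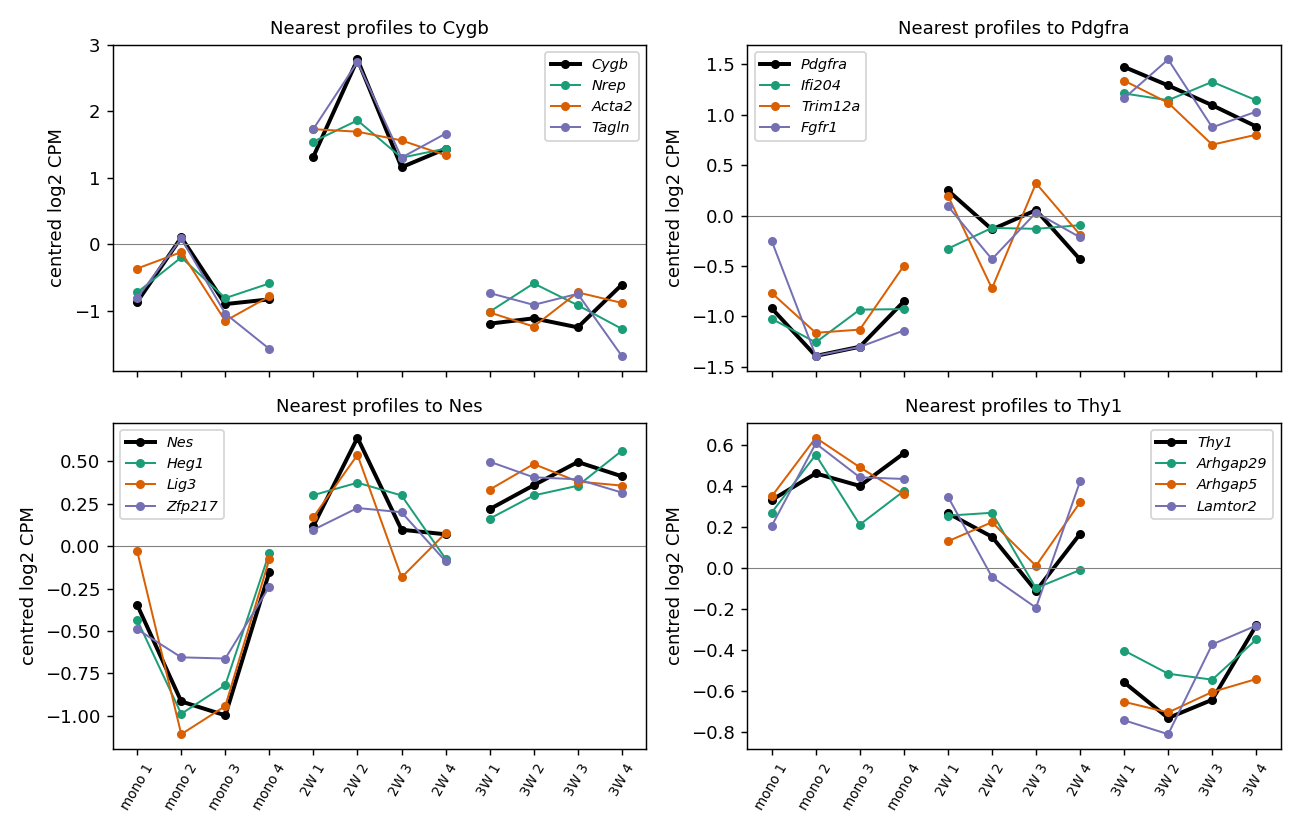
Log2 CPM centred on the mean of each gene (y axes differ between panels) in the 12 libraries for the 4 members that were called in any comparison (black) and the 3 genes nearest to each (colours). *Cygb* and *Tagln* peak together in replicate 2 of 2W-PSCs, where *Acta2* does not, and the profiles of *Pdgfra* and its neighbours step upwards from mono-PSCs to 3W-PSCs.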

How the data were processed

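Whole-number counts per gene were deposited for the 12 libraries. Per the methods and the submitters' processing notes, the authors made QuantSeq 3′ FWD libraries and used FastQC, a trimming step, STAR (default parameters, GRCm38) and featureCounts (Ensembl annotation). The authors' methods speak of normalised read counts, but the deposited counts are whole and their totals differ, so they were used as raw counts. The strand setting and molecular identifiers are not given in the sources used here. Detection floors cover counting error only, while the 95% intervals of fold changes come from the edgeR fits and include the spread between cultures.

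Counts were scaled by TMM and compared in edgeR 4.0.16 (R 4.3.3, limma 3.58.1) with filterByExpr, glmQLFit and glmQLFTest on the 8 libraries of each pair of cultures, and p-values were adjusted over all genes tested. Levels are CPM scaled over 12 libraries, log2 CPM used a prior count of 2 and fold changes one of 0.125. The study names DESeq2 (1.42.0 here), which was run as an alternative, beside DESeq2's size factors, no filter, at least 10 counts in every library, 1 fit of all libraries, a replicate block, each library left out and a fit without *Gm26924* and mitochondrial rRNA genes. The scripts were tested on simulated counts.

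Same-numbered mono-PSCs and 2W-PSCs had correlated deviations (r = 0.105 to 0.382 over genes). Each r was above the largest with another number, though barely in replicate 3 (0.239 against 0.238). The numbers may thus pair these libraries, but the labels state no shared batch, and the main fits used no replicate block. Positions come from GENCODE M21 on GRCm38. Members and lists were chosen with earlier results of these data known. Named genes were the members, up to 3 called genes per list and comparison taken from those with the largest fold change (not all of these are printed), the most abundant and the absent markers of other cell types, and the 3 nearest profiles of each called member. Genes outside this rule are marked in the text as singled out after their values were seen. Some items are not reported here.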

Additional observations from a re-analysis of the deposited data

Results flagged for a closer look

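Of 20 groups of 4 libraries examined, 3 had a library far from the other replicates by Dixon's criterion, which by chance marks about 1 in 20. *Cygb* in replicate 2 of mono-PSCs was 81.1 CPM, beside 40.3 to 42.3 CPM in the other mono-PSCs. *Cygb* in replicate 2 of 2W-PSCs was 521 CPM, beside 169 to 205 CPM in the other 2W-PSCs. *Nes* in replicate 2 of 2W-PSCs was 70.2 CPM, beside 47.2 to 48.9 CPM in the others. Replicate 2 of 2W-PSCs is also the library that lay apart over all genes and had the lowest total count.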

How the results depend on the processing

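*Pdgfra*, *Nes* and *Thy1* in 3W-PSCs against mono-PSCs and *Cygb* and *Pdgfra* in 3W-PSCs against 2W-PSCs were called in all 15 alternatives, with largest adjusted p-values of 1.57e-05, 0.00842, 0.0013, 0.00612 and 0.0255. The number of genes called in 2W-PSCs against mono-PSCs, 111, was 177 without a filter, 57 with at least 10 counts in every library, 262 with all 12 libraries in 1 fit and 275 in DESeq2. It ranged from 61 to 233 when 1 library was left out (63 and 61 without replicates 3 and 4 of mono-PSCs, and 64, 233 and 61 without replicates 1, 2 and 4 of 2W-PSCs). Members called there were 2 with all 12 libraries in 1 fit, where *Pdgfra* joined *Cygb*, and 0 to 1 with 1 library left out. Between 3W-PSCs and 2W-PSCs, 1230 genes became 752 with the replicate block and 497 to 2107 with 1 library left out (2107 and 666 without replicates 2 and 4 of 2W-PSCs, and 550, 497, 750 and 667 without replicates 1, 2, 3 and 4 of 3W-PSCs), and 2 or 3 members were called. In 3W-PSCs against mono-PSCs, 3 or 4 members were called in every alternative.

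Signs changed for uncalled values alone. With 1 library left out, the log2 fold change of *Des* in 3W-PSCs against mono-PSCs ranged from -1.01 to 0.13, with 0.05 and 0.13 without replicate 4 of mono-PSCs and replicate 2 of 3W-PSCs. In 3W-PSCs against 2W-PSCs, *Pdgfrb* ranged from -0.35 to 0.27 and was 0.2 with the replicate block, and *Vim* ranged from -0.21 to 0.02. The receptor ratio in 2W-PSCs against mono-PSCs ranged from -0.8 to 0.04, that in 3W-PSCs against mono-PSCs from -1.79 to -1.38, and that in 3W-PSCs against 2W-PSCs from -1.59 to -0.75. With numbers paired, the ratio in 3W-PSCs against mono-PSCs was again -1.55, and 4 pairs are too few for an exact test to pass the threshold. In the comparisons with 3W-PSCs, same-numbered libraries had r from -0.057 to 0.169, in some replicates below the r with another number. Whether the block groups related libraries there is therefore unclear. With the block, *Pdgfrb* in 3W-PSCs against mono-PSCs passed (edgeR adjusted p = 0.0231), and in 3W-PSCs against 2W-PSCs *Thy1* (0.0607), *Fabp4* (0.0617), *Lrp1* (0.0729) and *Synm* (0.0535) did not. In 2W-PSCs against mono-PSCs the block changed no call of a named gene. The cause of these shifts was not tested. A ratio of *Des* to *Vim* counts was not run, because *Des* had 3 counts or fewer in some libraries.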
